A study of Mus musculus with 12 samples.

Results

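The glycolysis genes are 10 mouse genes that take glucose from its entry into the cell to lactate, namely Slc2a1, Hk2, Pfkfb3, Pfkl, Aldoa, Tpi1, Gapdh, Eno1, Pkm and Ldha. They were looked up by symbol, and all 10 were found among the 38739 symbols of the expression table and passed the filter on low values. RNA-seq was performed on 12 samples of bone marrow-derived macrophages (BMDMs), which are macrophages grown from marrow cells in culture, from wild-type (WT) C57BL/6J mice and from cGAS knockout (cGAS-/-) mice. The knockout is present in every cell of the animal and removes cGAS, a sensor of DNA in the cytosol. The cells of each genotype were left untreated in medium (UT) or were stimulated with lipopolysaccharide (LPS) from E. coli, which gave 4 groups of 3 samples each, written as the genotype followed by UT or LPS. The labels give LPS at 100 ng/mL for 1 h, whereas the methods give a higher dose and a day-long stimulation, so neither the dose nor the duration behind these values is certain. A legend in the study describes the triplicates as technical, and the p-values therefore measure the spread between these samples, which may not be the spread between mice.

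Glycolysis converts glucose to pyruvate in the cytosol and yields ATP and NADH without oxygen. Macrophages stimulated with LPS are known to take up more glucose and to release lactate, and the hypoxia-inducible factor HIF-1 is a known activator of many genes of the pathway. Slc2a1 encodes the glucose transporter GLUT1, Hk2 the hexokinase that traps glucose as glucose-6-phosphate, and Pfkl the liver form of phosphofructokinase, which commits the sugar to glycolysis. Pfkfb3 encodes an enzyme that makes fructose-2,6-bisphosphate, the strongest activator of phosphofructokinase. Aldoa (aldolase A), Tpi1 (triosephosphate isomerase), Gapdh (glyceraldehyde-3-phosphate dehydrogenase), Eno1 (enolase 1) and Pkm (pyruvate kinase) carry out later steps, and Ldha (lactate dehydrogenase A) turns pyruvate into lactate.

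The genes lie on 6 chromosomes of GRCm39. Slc2a1 is at chr4:118965908-118996365 and Eno1 at chr4:150321073-150337027 on the plus strand. Hk2 is at chr6:82699740-82751469, Tpi1 at chr6:124787549-124791273 and Gapdh at chr6:125135289-125143518 on the minus strand. Aldoa is at chr7:126393822-126399923 on the minus strand and Ldha at chr7:46490899-46505061 on the plus strand. Pfkfb3 is at chr2:11476244-11558888 and Pfkl at chr10:77818084-77845922 on the minus strand, and Pkm is at chr9:59563364-59586663 on the plus strand.

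Because most of the genes had higher values with LPS, and because HIF-1 binds a short core in DNA, the 250 bases before the start of each gene's main transcript were searched for that core, ACGTG or GCGTG on either strand. The windows of 4 genes held no annotated exon and are shown here on the strand of the gene, 5′ to 3′, with each match of the core in capitals, also where it reads CACGT or CACGC on the other strand. They are Slc2a1 (chr4:118965658-118965907), Gapdh (chr6:125142737-125142986), Pfkfb3 (chr2:11507418-11507667) and Pfkl (chr10:77845923-77846172). The windows of Gapdh and Pfkfb3 lie inside the annotated gene, ahead of the start of the main transcript and not of the gene's outermost one.
Slc2a1: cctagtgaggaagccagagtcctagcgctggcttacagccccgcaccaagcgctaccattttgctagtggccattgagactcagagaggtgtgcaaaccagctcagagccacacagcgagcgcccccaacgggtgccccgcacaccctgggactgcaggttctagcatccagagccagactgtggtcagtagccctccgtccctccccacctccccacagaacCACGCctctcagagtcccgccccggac
Gapdh: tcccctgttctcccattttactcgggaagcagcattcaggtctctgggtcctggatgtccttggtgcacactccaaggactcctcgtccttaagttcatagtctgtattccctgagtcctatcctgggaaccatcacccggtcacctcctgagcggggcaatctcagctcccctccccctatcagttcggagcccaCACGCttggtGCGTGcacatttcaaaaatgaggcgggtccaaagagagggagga
Pfkfb3: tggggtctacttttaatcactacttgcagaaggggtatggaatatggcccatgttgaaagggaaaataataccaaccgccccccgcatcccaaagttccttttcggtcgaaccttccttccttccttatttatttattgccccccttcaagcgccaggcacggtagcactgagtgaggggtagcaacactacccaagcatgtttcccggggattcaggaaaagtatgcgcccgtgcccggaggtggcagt
Pfkl: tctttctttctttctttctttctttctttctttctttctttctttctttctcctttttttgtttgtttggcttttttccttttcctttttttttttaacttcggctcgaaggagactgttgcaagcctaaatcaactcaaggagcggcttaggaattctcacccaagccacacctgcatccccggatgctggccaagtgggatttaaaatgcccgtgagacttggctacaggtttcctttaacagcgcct
The Slc2a1 window held 1 match and the Gapdh window 2, while those of Pfkfb3 and Pfkl held 0. Over all members, 6 of 10 windows held the core, beside 53.8% of the 8023 windows of the same length taken over genes. The longer E-box CACGTG, which contains ACGTG, was found in 1 of 10 windows (Ldha), beside 8.26% of all windows, and the GC box GGGCGG on either strand in 6 of 10, beside 49.4%. The matches describe letters in these windows and were not tested for binding.

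The values are TPM (transcripts scaled to the library) averaged over the transcripts of a symbol, so a level can be compared between samples for a gene but not between genes. The number of reads is unknown. The targeted gene, Cgas, was 2.67, 2.89 and 2.68 TPM in WT UT and 1.19, 2.88 and 3.25 in WT LPS, against 0.0841, 0.11 and 0.291 in cGAS-/- UT and 0.0703, 0.0919 and 0.0975 in cGAS-/- LPS, so the labels of genotype held in all 12 samples. Of 10 macrophage markers, 7 were listed, with a summed level of 16689 to 34085 TPM per sample, nearly all of it Lyz2. That sum was 33625 to 34085 TPM in cGAS-/- LPS and 20458 to 22331 in cGAS-/- UT. The other markers went both ways. Means in cGAS-/- LPS against cGAS-/- UT were lower for Cd68 (236 against 1026 TPM) and Mrc1 (0.938 against 24.5). The same held for Mertk (7.49 against 17.7) and Cx3cr1 (4.14 against 17.8). Means were higher for Itgam (143 against 44.5 TPM) and Fcgr1 (276 against 62.4). The summed level of 6 listed B cell markers was 108 to 134 TPM in WT UT, 30.6 to 44.9 in WT LPS, 19.9 to 28.5 in cGAS-/- UT and 3.04 to 8.84 in cGAS-/- LPS. The 8 listed neutrophil markers summed to 139 to 214, 35.9 to 353, 53.3 to 126 and 46.5 to 60.1 TPM in the same order, and the markers of T and NK cells to at most 0.934 TPM in any sample. These sums move with the groups, and their part in the results was not tested. Neither can more cells of a type and more RNA per cell be told apart in such samples.

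One library stood apart. The third WT LPS sample summed to 709802 TPM over the table, against 447189 to 503156 in the other 11, and protein-coding genes made up 18.5% of it, against 39.7% to 54.4% in the others. A ferritin heavy chain pseudogene, Fth-ps3, was the largest row in every sample, at 225334 TPM in that library against 52691 and 73618 in the other WT LPS samples and 27926 to 30118 in WT UT. In cGAS-/- cells it was 37294 to 39913 TPM without LPS and 86438 to 89043 TPM with it. Of the 10 glycolysis genes, 7 were lower there than in both other WT LPS samples, at 0.188 times (Hk2) to 0.62 times (Eno1) their mean. The other 3 were higher, Pfkfb3 at 2.97 times, Gapdh at 1.66 times and Pkm at 1.56 times. Over all 11887 tested genes, 57.4% were below both others and 20.9% above both. The other pair of WT LPS samples also differed, with all 10 genes higher in the second than in the first. The median log2 level of all tested genes was higher there too, at 1.90 in the second and 1.54 in the first. The coefficient of variation of the 10 genes was 26.2% to 70.8% in WT LPS, against 0.673% to 13.8% in WT UT, 0.339% to 12.8% in cGAS-/- UT and 1.28% to 5.06% in cGAS-/- LPS. For counts of called genes, and for values that changed much, the value without the third WT LPS sample is therefore given too.

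To determine the response of the knockout cells to LPS, cGAS-/- LPS was compared with cGAS-/- UT. All 10 genes had higher values with LPS, with no overlap between the 3 samples of each group, and 8 of 10 rose at an adjusted p under 0.05 (limma on log2(TPM + 1), Benjamini-Hochberg adjusted over all tested genes). Of all tested genes, 4.76% rose and 9.06% fell by that rule, and 15.5% had their 3 LPS samples above the 3 UT samples. The median log2 fold change was 1.33 over the 10 genes and -0.20 over all tested genes. The ratio of mean TPM ranged from 1.59-fold for Aldoa to 9.23-fold for Pfkfb3.

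At the entry of the pathway, the glucose transporter gene Slc2a1 was 9.35, 9.32 and 9.38 TPM in cGAS-/- UT and 28.1, 27.5 and 28.8 TPM in cGAS-/- LPS. It rose 3.01-fold in mean TPM (log2 fold change 1.49 ± 0.40, SE, adjusted p = 0.030). Hk2, the hexokinase gene, was 6.75, 7.10 and 6.40 TPM without LPS and 16.8, 18.0 and 16.4 TPM with it. These samples do not overlap and their means differ 2.53-fold, but the gene did not pass the test with all 12 samples (1.22 ± 0.42, SE, adjusted p = 0.081), in which the spread of the WT LPS samples enters the shared estimate. With the 6 cGAS-/- samples alone, or without the third WT LPS sample, Hk2 and Aldoa passed and all 10 genes were called, while 12.7% and 9.19% of all tested genes were called higher in those fits.

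The genes around the commitment step rose most. Pfkfb3 was 0.705, 0.677 and 0.55 TPM in cGAS-/- UT and 6.02, 5.77 and 6.05 TPM in cGAS-/- LPS, a 9.23-fold rise (log2 fold change 2.08 ± 0.36, SE, adjusted p = 0.0024). It was the single member past the methods' stricter rule, which also asks for a log2 fold change above 2 and was met upwards by 1.94% of all tested genes. Pfkl was 5.89, 4.95 and 5.46 TPM without LPS and 19.0, 18.5 and 17.9 TPM with it, which is 3.40-fold (1.60 ± 0.29, SE, adjusted p = 0.0036).

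In the lower part of the pathway, 4 of 5 genes rose. Gapdh was 121, 122 and 134 TPM in cGAS-/- UT and 326, 334 and 334 TPM in cGAS-/- LPS (1.39 ± 0.24, SE, adjusted p = 0.0023), and Tpi1 was 53.5, 53.6 and 53.1 against 136, 129 and 133 TPM (1.30 ± 0.25, SE, adjusted p = 0.0047). Eno1 was 42.8, 42.4 and 41.1 TPM without LPS and 107, 103 and 104 TPM with it (1.29 ± 0.24, SE, adjusted p = 0.0035). These 3 genes stood between 2.48-fold and 2.64-fold in mean TPM. Pkm was 99.1, 95.1 and 97.4 against 193, 185 and 185 TPM, a smaller rise of 1.93-fold (0.94 ± 0.26, SE, adjusted p = 0.032), which was called under 12 of 24 settings (adjusted p from 3.4e-07 to 0.27). Aldoa had the smallest difference, with 160.0, 153 and 149 TPM in UT and 241, 244 and 250.1 TPM in LPS, and was not called (0.67 ± 0.33, SE, adjusted p = 0.24). The last gene of the pathway, Ldha, was 33.1, 33.9 and 32.8 TPM without LPS and 89.4, 85.7 and 87.8 TPM with it, which is 2.63-fold (1.37 ± 0.33, SE, adjusted p = 0.018). When any one of the 6 cGAS-/- samples was left out, 5 of the 10 genes were called each time, beside 3.2% to 3.44% of all tested genes, and these were Eno1, Gapdh, Pfkfb3, Pfkl and Tpi1.

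**Figure D1:**
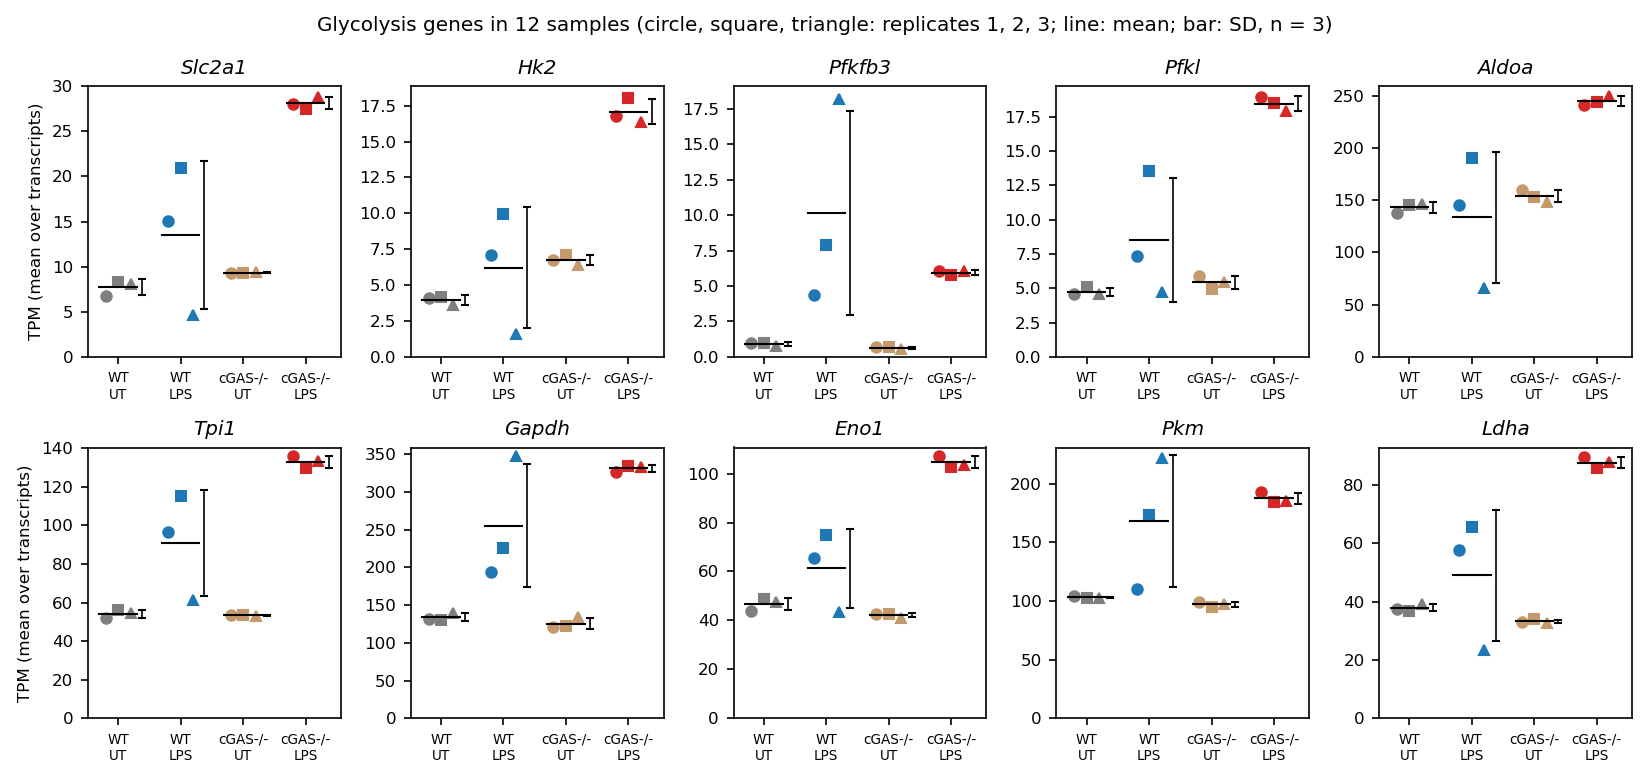
TPM of the 10 genes (vertical axes, each from 0) in the 4 groups, with a circle, square and triangle for replicates 1, 2 and 3, a line at the mean and a bar for the SD (n = 3). The cGAS-/- LPS samples lie close together and above all cGAS-/- UT samples for all 10 genes, while the WT LPS samples spread widely, with replicate 3 lowest for 7 genes and highest for Pfkfb3, Gapdh and Pkm.

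The same question was asked in WT cells by comparing WT LPS with WT UT. Here 2 of 10 genes rose, Pfkfb3 and Gapdh, and 0 fell, while 4.31% of all tested genes rose and 23.3% fell. The 3 WT LPS samples lay above the 3 WT UT samples for 4 genes, Pfkfb3, Gapdh, Tpi1 and Pkm, beside 5.31% of all tested genes. The median log2 fold change was 0.58 over the 10 genes and -0.46 over all tested genes, and most genes thus had lower deposited values in WT LPS. Scaling by the median of ratios brought the median of all genes to -0.02, and then all 10 genes were called higher, as were 8.35% of all tested genes.

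Pfkfb3 was 0.97, 0.977 and 0.758 TPM in WT UT and 4.38, 7.90 and 18.2 TPM in WT LPS. It rose 11.3-fold in mean TPM (log2 fold change 2.36 ± 0.36, SE, adjusted p = 0.00085), also past the stricter rule that 1.43% of all tested genes met upwards, and was called under all 24 settings tried (adjusted p from 6.2e-07 to 0.038). Without the third WT LPS sample its log2 fold change was 1.87. Gapdh was 131, 131 and 139.7 TPM in WT UT and 194, 225 and 348 TPM in WT LPS, a 1.91-fold rise (0.88 ± 0.24, SE, adjusted p = 0.019) that was not called when any one WT UT sample was left out.

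The other 8 genes did not pass the test. Tpi1 was 51.9, 56.0 and 54.6 TPM in WT UT and 96.6, 115 and 61.1 TPM in WT LPS (0.69 ± 0.25, SE, adjusted p = 0.059), and Pkm was 104, 103 and 103 against 109.8, 174 and 221 TPM (0.64 ± 0.26, SE, adjusted p = 0.080). All their WT LPS samples were above WT UT. Slc2a1 was 6.71, 8.32 and 8.10 TPM in WT UT and 15.0, 20.9 and 4.65 TPM in WT LPS (adjusted p = 0.33). Hk2 was 4.08, 4.20 and 3.59 against 7.10, 9.94 and 1.60 TPM (adjusted p = 0.59). In both genes 2 WT LPS samples were above all WT UT samples and the third was below them. The same held for Eno1, at 43.8, 48.6 and 47.4 against 65.6, 74.9 and 43.6 TPM (adjusted p = 0.27), and for Ldha, at 37.5, 36.9 and 39.3 against 57.8, 65.7 and 23.5 TPM (adjusted p = 0.60). Pfkl was 4.57, 5.08 and 4.56 TPM in WT UT and 7.37, 13.5 and 4.72 TPM in WT LPS (0.63 ± 0.29, SE, adjusted p = 0.13), with the third sample inside the range of WT UT. Aldoa was 137, 145 and 147 against 145, 190.0 and 65.7 TPM, the single gene with a negative log2 fold change (-0.23 ± 0.33, SE, adjusted p = 0.62).

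Without the third WT LPS sample, 8 of 10 genes rose, namely all but Aldoa and Pkm, while 8.26% of all tested genes rose. Slc2a1 then had a log2 fold change of 1.11, Tpi1 of 0.95, Pfkl of 0.94, Hk2 of 0.93, Ldha of 0.69, Gapdh of 0.64 and Eno1 of 0.58. Aldoa was at 0.21 and Pkm at 0.42. Over the 24 settings, Gapdh was called in 19, Tpi1 in 7, and Slc2a1, Pfkl and Eno1 in 5 each. Hk2 and Ldha were called in 4 each, Pkm in 3 and Aldoa in 2. Read against the median log2 level of all tested genes in the same sample, the mean log2 level of the 10 genes stood 3.72, 3.79 and 3.85 higher in the 3 WT LPS samples, against 2.55 to 2.63 in WT UT. In the cGAS-/- samples the same difference was 2.68 to 2.75 in UT and 4.28 in each of the 3 LPS samples. This mean joins genes that went both ways in the third WT LPS sample, whose log2 ratio of Ldha to Gapdh was -3.83 against -1.73 and -1.76 in the other two.

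**Figure D2:**
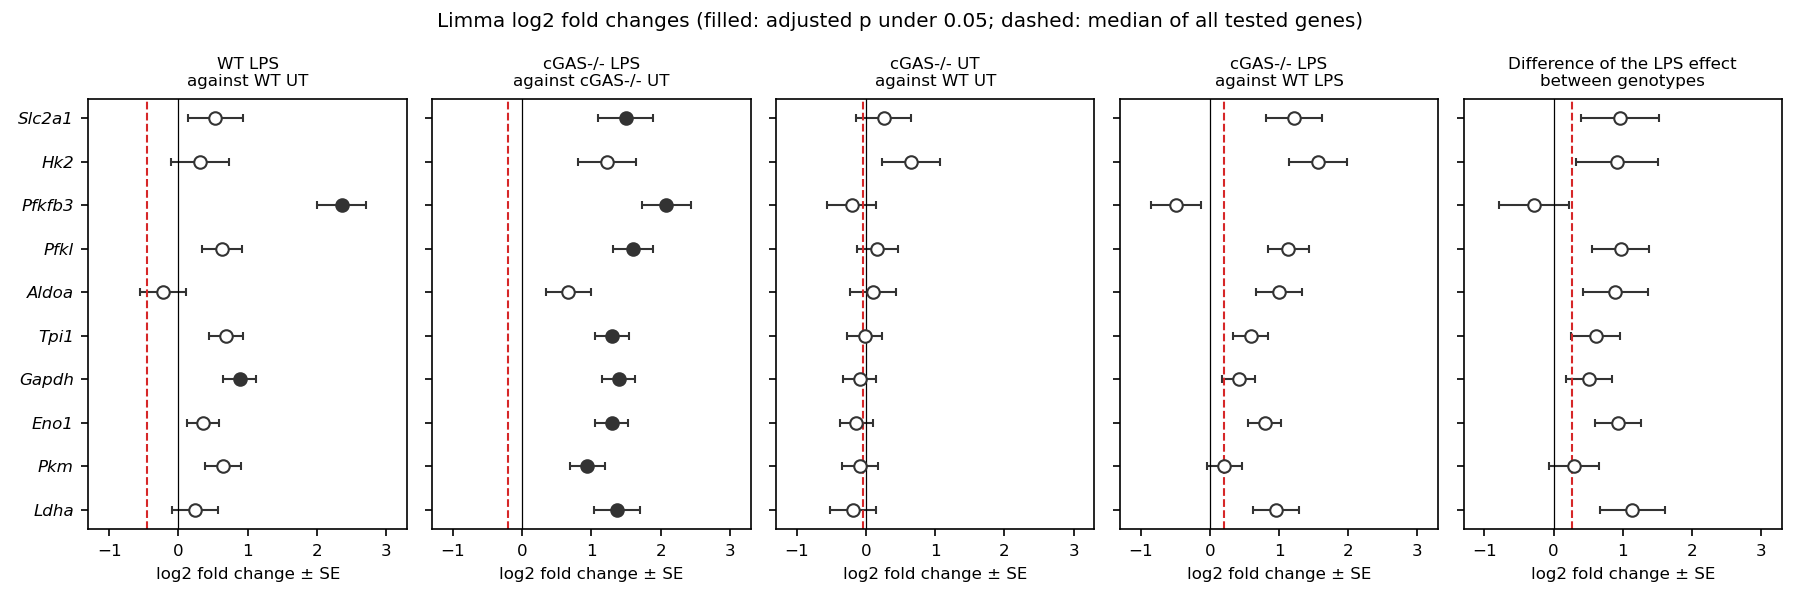
Limma log2 fold change (horizontal axis, ± SE) of each gene in 4 comparisons and in the difference of the LPS effect between genotypes, filled where the adjusted p was under 0.05, with the median of all tested genes as a dashed line. Filled points are 2 of 10 in WT and 8 of 10 in cGAS-/- cells for LPS against UT, and 0 of 10 in each of the 3 other panels.

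To determine whether the genotypes differed after stimulation, cGAS-/- LPS was compared with WT LPS. None of the 10 genes passed the test (0 of 10 with limma, 7 of 10 at an unadjusted p under 0.05), while 1.36% of all tested genes were called higher and 1% lower. For 7 genes, Slc2a1, Hk2, Pfkl, Aldoa, Tpi1, Eno1 and Ldha, the 3 cGAS-/- LPS samples lay above the 3 WT LPS samples, as was the case for 12.6% of all tested genes. The median log2 difference was 0.87 over the 10 genes and 0.20 over all tested genes, but 0.56 and 0.04 without the third WT LPS sample and 0.38 and -0.02 with median-of-ratios scaling. Hk2 had the largest difference, with 16.8, 18.0 and 16.4 TPM in cGAS-/- LPS and 7.10, 9.94 and 1.60 in WT LPS (log2 difference 1.56 ± 0.42, SE, adjusted p = 0.093), followed by Slc2a1 (1.21 ± 0.40, SE, adjusted p = 0.15) and Pfkl (1.13 ± 0.29, SE, adjusted p = 0.083). Pfkfb3 was the single gene with a lower mean in cGAS-/- LPS, at 5.77 to 6.05 TPM within the WT LPS range of 4.38 to 18.2 TPM (-0.49 ± 0.36, SE, adjusted p = 0.46). Gapdh (0.42 ± 0.24, SE) and Pkm (0.21 ± 0.26, SE) also overlapped between the genotypes.

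Without the third WT LPS sample, 7 genes were higher in cGAS-/- LPS, beside 3.84% of all tested genes. Hk2 then differed by 0.94, Pfkl by 0.82, Gapdh by 0.66, Slc2a1 by 0.64, Eno1 by 0.57, Aldoa by 0.56 and Ldha by 0.50. Pkm at 0.44, Tpi1 at 0.33 and Pfkfb3 at 0.005 were not called. The differences of the called genes were thus smaller without that sample than with it, apart from that of Gapdh. After median-of-ratios scaling of all 12 samples, Hk2 (1.19) and Pfkl (0.70) were called, beside 2.05% of all tested genes, and Gapdh and Pkm had negative differences of -0.08 and -0.28. With that scaling and without the third sample, 8 genes were called higher, from 0.32 for Pkm to 0.84 for Hk2, beside 6.01% of all tested genes, and Tpi1 and Pfkfb3 were not. Leaving out the second WT LPS sample instead also gave 7 genes, but 23.9% of all tested genes were then called higher. Over all 24 settings, Hk2 was called in 8 (adjusted p from 0.00029 to 0.62), Pfkl in 7 (adjusted p from 0.0013 to 0.63) and Pfkfb3 in 0. The difference of Pfkfb3 ranged from -0.96 to 0.035 over these settings.

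**Figure D3:**
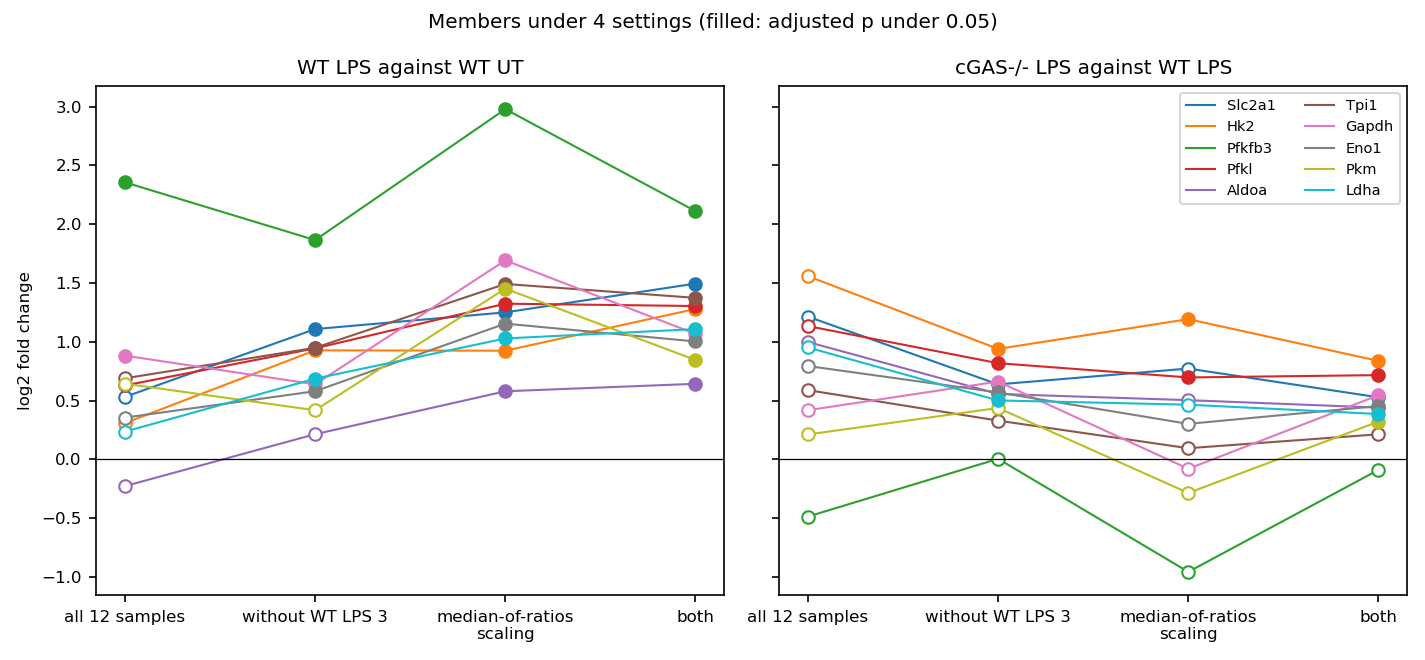
Log2 fold change (vertical axis) of the 10 genes in WT LPS against WT UT (left) and cGAS-/- LPS against WT LPS (right) with all 12 samples, without the third WT LPS sample, with median-of-ratios scaling and with both changes, filled where the adjusted p was under 0.05. In WT cells the number of genes called goes from 2 to 8, 10 and 10, and between the genotypes from 0 to 7, 2 and 8.

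The difference of the LPS effect between genotypes was then tested itself, as the interaction term of the same model. It was called for 0 of 10 genes with limma, with 3 of 10 (Eno1, Ldha and Pfkl) at an unadjusted p under 0.05, while 0.732% of all tested genes were called with a larger effect in cGAS-/- cells and 0.168% with a smaller one. The median was 0.90 over the 10 genes and 0.27 over all tested genes, and 0.49 and 0.08 without the third WT LPS sample. With all samples, Ldha had the largest value (1.13 ± 0.47, SE, adjusted p = 0.40), Pfkl stood at 0.97 ± 0.41 (SE, adjusted p = 0.42) and Eno1 at 0.94 ± 0.33 (SE, adjusted p = 0.31). Without the third WT LPS sample, Gapdh (0.75), Eno1 (0.71) and Ldha (0.68) were called, with 2.92% of all tested genes called in that direction. Pfkfb3 was the single gene with a negative value (-0.28 ± 0.50, SE, adjusted p = 0.82), which became 0.21 without that sample. It ranged from -0.78 to 0.23 over the settings and was not called in any.

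In untreated cells, where all samples lay close together, cGAS-/- UT and WT UT did not differ in any of the 10 genes by the test (0 called with limma, and 0 at an unadjusted p under 0.05), while 0.252% of all tested genes were called higher in cGAS-/- UT and 1.58% lower. The median log2 difference was -0.05 over the 10 genes and -0.04 over all tested genes. Hk2 had the largest difference, at 6.75, 7.10 and 6.40 TPM in cGAS-/- UT against 4.08, 4.20 and 3.59 in WT UT, 1.71-fold in mean TPM (0.65 ± 0.42, SE, adjusted p = 0.995). It was called in 4 of 24 settings (adjusted p from 0.0011 to 1), of which 3 did not hold the third WT LPS sample and the fourth gave it a weight of 0.0352. The 3 cGAS-/- UT samples also lay above the 3 WT UT samples for Slc2a1 and Aldoa, which made 3 of 10 genes beside 12.1% of all tested genes. They lay below them for Pfkfb3, Eno1, Pkm and Ldha, with ratios of mean TPM of 0.714 for Pfkfb3, 0.878 for Ldha, 0.904 for Eno1 and 0.943 for Pkm. These were 4 of 10 genes, beside 18.4% of all tested genes that lay wholly below. None of these 6 genes was called with or without the third WT LPS sample.

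To set members against their isozymes or neighbours within the same sample, log2 ratios of (TPM + 1) were taken. Such ratios depend less on the scale of a sample than levels do, but the added 1 keeps some of that dependence, mostly for low genes. With 3 samples against 3, the exact permutation test (two-sided) cannot go below p = 0.1, and 26 of the 52 comparisons of 13 ratios reached that value, with an adjusted p of 0.2. The balance of phosphofructokinase forms differed with LPS in both genotypes. The log2 ratio of Pfkl to Pfkp, the platelet form, was -0.25 ± 0.10 (SD, n = 3) in WT UT and 1.49 ± 0.19 in WT LPS, and -0.30 ± 0.13 in cGAS-/- UT and 1.46 ± 0.03 in cGAS-/- LPS. The difference was 1.74 in WT and 1.76 in cGAS-/- cells, but 2.21 and 1.93 at a pseudocount of 0.1 and 0.98 and 1.27 at one of 5, so the genotype with the larger value depends on that choice. At a pseudocount of 1, every sample with LPS, the third WT one included, lay above those without it. The ratio of Pfkfb3 to Pfkfb4, another member of its family, was 3.05 higher with LPS in WT and 2.36 higher in cGAS-/- cells, with 4.10 and 3.41 at a pseudocount of 0.1 and 1.57 and 1.08 at one of 5. That of Ldha to Ldhb was 1.07 and 2.58 higher, again without overlap. It was 2.33 and 3.69 higher at a pseudocount of 0.1 and 0.47 and 1.69 at one of 5, where the WT groups overlapped. Leaving out the third WT LPS sample gave 1.64 for Pfkl/Pfkp, 2.74 for Pfkfb3/Pfkfb4 and 1.46 for Ldha/Ldhb in WT cells, each without overlap.

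For hexokinases the genotypes stood apart. The log2 ratio of Hk2 to Hk3, a hexokinase abundant in myeloid cells, was -1.77 ± 0.13 (SD, n = 3) in WT UT and -1.89 ± 0.48 in WT LPS, with overlap, but -1.22 ± 0.05 in cGAS-/- UT and -0.14 ± 0.03 in cGAS-/- LPS, without it. In both states the 3 cGAS-/- samples lay above the 3 WT samples (p = 0.1, exact permutation test, two-sided, the smallest possible). Hk2 against Hk1 was likewise higher in cGAS-/- cells, by 0.70 in UT and by 0.77 in LPS, the latter with overlap at a pseudocount of 0.1. Between genotypes with LPS, the differences without the third WT LPS sample were 1.48 for Hk2/Hk3 and 0.53 for Hk2/Hk1. The transporter Slc2a1 fell behind Slc2a6, another sugar transporter that responds to LPS in macrophages, with a difference in log2 ratio of -1.59 in cGAS-/- cells, without overlap, which was -2.63 at a pseudocount of 0.1 and -0.44 at one of 5. In WT cells the difference was -1.20, but the third WT LPS sample stood at -1.27 and the others at 1.44 and 1.65, against 1.67 to 1.96 in WT UT. Without it the difference was -0.27, and with a pseudocount of 5 and all samples the WT groups overlapped (-0.51). Among the enzymes of the lower pathway in cGAS-/- cells, Ldha, Eno1 and Tpi1 had ratios to Gapdh that overlapped between UT and LPS, with differences of -0.02, -0.10 and -0.09. The ratios of Pkm and Aldoa to Gapdh were lower with LPS, by -0.45 and -0.73, without overlap.

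**Figure D4:**
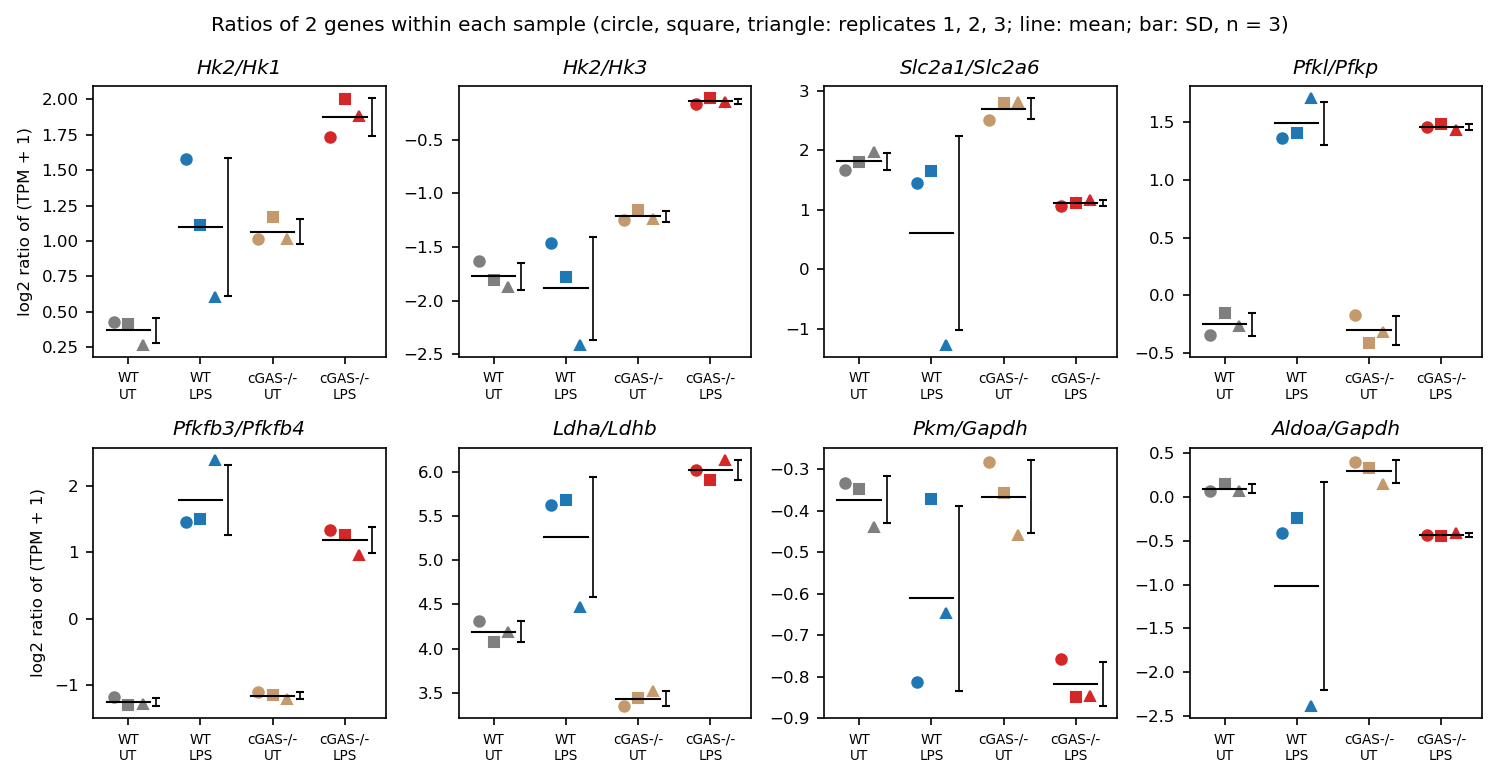
Log2 ratio of (TPM + 1) of 2 genes within each sample (vertical axes) in the 4 groups, with a circle, square and triangle for replicates 1, 2 and 3, a line at the mean and a bar for the SD (n = 3). Pfkl/Pfkp and Pfkfb3/Pfkfb4 are higher with LPS in all samples of both genotypes, and Hk2/Hk3 is highest in cGAS-/- LPS, at -0.14 on average.

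The 10 genes were then set beside the rest of the pathway and its branches, listed by function. Counts of these lists are to be read against all tested genes, of which 4.31% rose and 23.3% fell with LPS in WT cells and 4.76% rose and 9.06% fell in cGAS-/- cells. When the third WT LPS sample was left out, 8.26% rose and 26.5% fell in WT cells, and 9.19% rose and 21.6% fell in cGAS-/- cells. Of 11 other glycolysis enzymes tested, 0 rose and 4 fell with LPS in WT cells (Pfkp, Ldhb, Aldoc and Eno2), and 0 rose and 1 fell in cGAS-/- cells (Ldhb, from 2.17 ± 0.20 to 0.368 ± 0.093 TPM, SD, n = 3). Their median log2 fold changes of -0.51 and -0.15 were close to those of all tested genes, at -0.46 and -0.20. Aldoc, the brain form of aldolase, was higher in cGAS-/- LPS than in WT LPS (log2 difference 1.17, adjusted p = 0.042). Without the third WT LPS sample, 1 of the 11 rose and 4 fell in WT cells, 1 rose and 1 fell in cGAS-/- cells, and Gpi1 (0.75) and Pfkp (0.75) too were higher in cGAS-/- LPS than in WT LPS. The difference of the LPS effect was then called for Gpi1 (0.88, adjusted p = 0.035). Pgk1 and Pgam1 were not analysed here.

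Among 11 tested sugar and lactate transporters, 2 rose and 3 fell in each genotype, and the share that fell in WT cells was near that of all tested genes. Slc2a6 rose in both, from 1.33 to 1.68 TPM in WT UT to 4.88 to 12.6 in WT LPS, and from 0.482 to 0.824 TPM in cGAS-/- UT to 12.2 to 12.9 in cGAS-/- LPS. The other riser in both was Slc16a3, which encodes MCT4, an exporter of lactate. Slc16a3 was 7.10, 7.44 and 7.69 TPM in cGAS-/- UT and 45.1, 45.7 and 48.2 TPM in cGAS-/- LPS (log2 fold change 2.49 ± 0.35, SE, adjusted p = 0.00062), and 7.70, 6.96 and 8.15 TPM in WT UT against 24.5, 32.9 and 9.89 TPM in WT LPS (1.30 ± 0.35, SE, adjusted p = 0.019). All samples with LPS were above those without it. Slc16a7, which encodes the transporter MCT2, fell in both (-1.86 in WT and -1.16 in cGAS-/- cells), as did Slc37a2, a sugar-phosphate transporter (-1.21 and -2.73). Slc16a1 fell in WT (-1.29), which was not called without the third WT LPS sample. Without that sample, 4 rose and 2 fell in WT cells, 4 rose and 4 fell in cGAS-/- cells, and Slc2a6 (1.07) and Slc16a3 (0.69) were higher and Slc2a3 (-0.62) was lower in cGAS-/- LPS than in WT LPS. Slc2a3 was low throughout, at 0.188 to 0.232 TPM in cGAS-/- LPS against 1.18 and 0.583 in the first and second WT LPS samples (adjusted p = 0.046).

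Of 14 regulators of glycolytic flux and of pyruvate entry into mitochondria, 1 rose and 6 fell in WT cells, and 1 rose and 3 fell in cGAS-/- cells. Txnip, an inhibitor of glucose uptake, fell in WT from 57.4, 55.9 and 49.8 to 10.7, 22.3 and 8.45 TPM (-2.01 ± 0.31, SE, adjusted p = 0.00087). In cGAS-/- cells it was 26.6, 30.5 and 26.8 TPM without LPS and 19.1, 17.7 and 18.5 TPM with it, and was not called. Pdk2, a kinase that switches off pyruvate dehydrogenase, and Pdp1, the phosphatase that switches it back on, fell in both genotypes. The log2 fold change of Pdk2 was -1.05 in WT and -1.19 in cGAS-/- cells, and that of Pdp1 was -1.03 and -1.29, with -0.63 in WT cells without the third WT LPS sample. Txnip was at -1.74 without it. Arrdc4, a relative of Txnip, was the riser in both (0.77 in WT and 0.92 in cGAS-/- cells). These counts for LPS against UT were the same without the third WT LPS sample. Between genotypes, where 0 had been called, Txnip was then lower in cGAS-/- UT than in WT UT (-0.93, adjusted p = 0.030). Pdk1 was then higher in cGAS-/- LPS than in WT LPS (0.76, adjusted p = 0.024).

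Of 15 HIF factors and oxygen-response genes tested, 3 rose and 2 fell in WT cells, and 4 rose and 0 fell in cGAS-/- cells, with median log2 fold changes of -0.46 and 0.44, beside -0.46 and -0.20 over all tested genes. The WT median was 0.05, beside -0.29 over all tested genes, without the third WT LPS sample. Hif1a, the oxygen-regulated subunit of HIF-1, was 10.8, 10.9 and 9.01 TPM in WT UT and 18.0, 41.5 and 31.3 TPM in WT LPS (1.41 ± 0.28, SE, adjusted p = 0.0045). It was 9.91, 10.9 and 11.1 TPM in cGAS-/- UT and 53.5, 51.5 and 55.6 TPM in cGAS-/- LPS (2.23 ± 0.28, SE, adjusted p = 0.00028). Bnip3 and Higd1a, a pair of mitochondrial genes known to respond to low oxygen, rose in both genotypes. Car9 was among the 2 fallers in WT cells (-0.95 ± 0.19, SE, adjusted p = 0.0041), at a mean of 0.326 TPM in WT LPS against 1.54 in WT UT. Egln3, an enzyme that marks HIF subunits for degradation, rose in cGAS-/- cells (2.04, adjusted p = 0.0075) and was higher in cGAS-/- LPS than in WT LPS (2.35 ± 0.42, SE, adjusted p = 0.017), at 25.3, 25.6 and 28.3 against 5.66, 9.07 and 1.32 TPM. When the third WT LPS sample was left out, 4 genes of this list rose and 2 fell in WT cells, with Egln3 now among the risers (0.84), and 7 rose and 1 fell in cGAS-/- cells. Egln3 then differed by 1.74 between genotypes with LPS, and the difference of its LPS effect was called (1.20, adjusted p = 0.026), which it was not with all samples (adjusted p = 0.27).

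Next came 17 genes listed for the TCA cycle, which burns pyruvate in mitochondria, though Mdh1, Idh1 and Aco1 among them encode cytosolic enzymes. Of these 17, 0 rose and 7 fell in WT cells, with Mdh1, Idh1 and Aco1 among the 7. In cGAS-/- cells 0 rose and 3 fell. The medians were -1.0 in WT and -0.25 in cGAS-/- cells, beside -0.46 and -0.20 over all tested genes. With the third WT LPS sample left out, the WT median was -0.61, 1 rose and 11 fell in WT cells and 1 rose and 6 fell in cGAS-/- cells. Mdh1, the cytosolic malate dehydrogenase, fell by 2.17 in WT (adjusted p = 0.0022) and by 1.62 in cGAS-/- cells (adjusted p = 0.017). The pentose phosphate pathway gave 0 risers and 1 faller of 7 in WT cells, Taldo1 (-1.70, adjusted p = 0.016), and 0 of either in cGAS-/- cells. Leaving out the third WT LPS sample gave 3 fallers in WT cells, with Taldo1 at -1.04, and 1 in cGAS-/- cells, Taldo1 itself (-1.42). Of 8 genes of the glycogen and hexosamine branches, 0 rose and 2 fell in WT cells (3 fell without that sample), and 2 rose in cGAS-/- cells. The risers were the glycogen synthase gene Gys1 and the phosphoglucomutase gene Pgm1. Gys1 was also higher in cGAS-/- LPS than in WT LPS, at 8.81, 9.15 and 8.94 against 2.06, 5.14 and 1.61 TPM (1.45 ± 0.28, SE, adjusted p = 0.023), and by 1.20 without the third WT LPS sample.

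**Figure D5:**
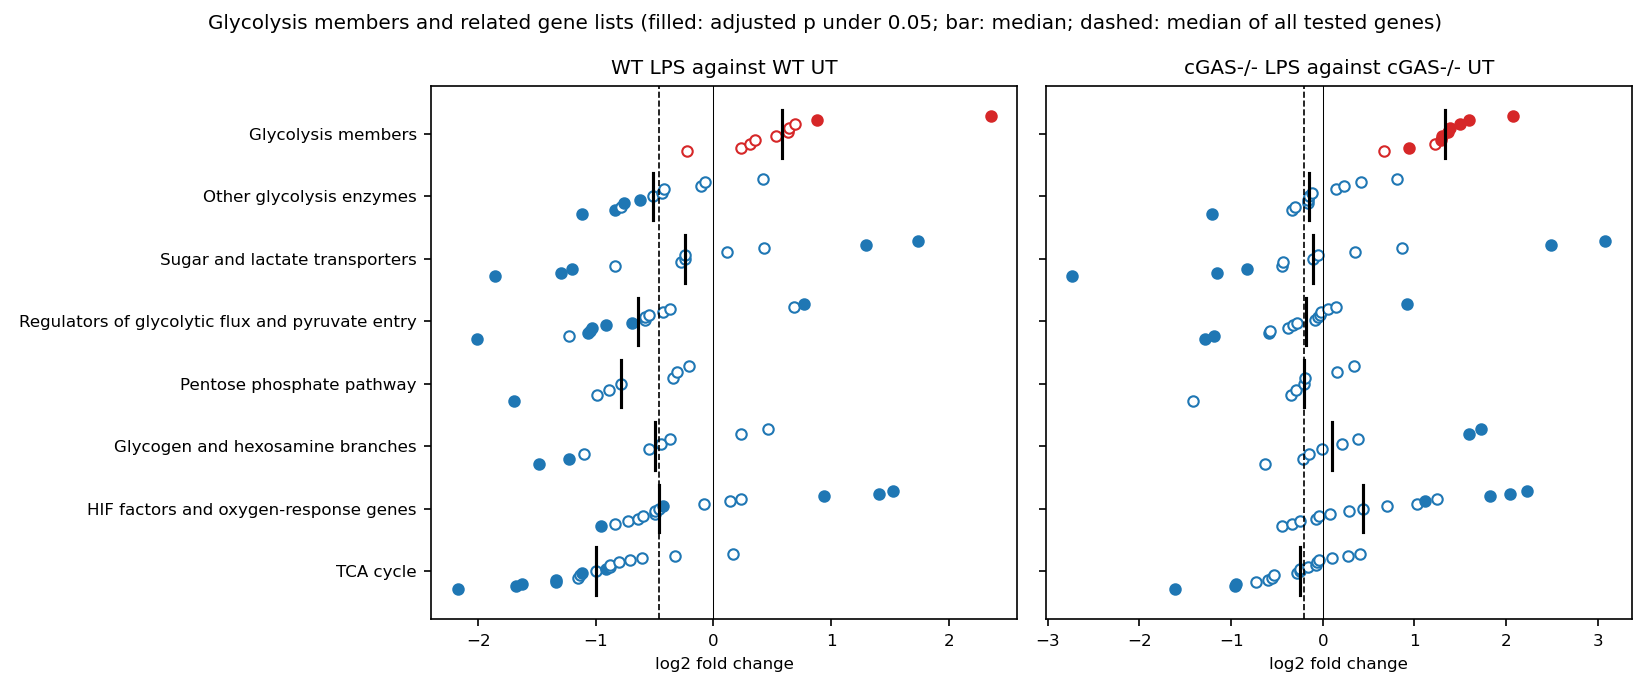
Log2 fold change (horizontal axis) with LPS in WT (left) and cGAS-/- cells (right) of the 10 glycolysis genes (red) and the genes of 7 related lists (blue), filled where the adjusted p was under 0.05, with a bar at each list's median and a dashed line at the median of all tested genes. The bar of the 10 genes is at 0.58 and 1.33, and those of the other glycolysis enzymes at -0.51 and -0.15.

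As a check of the stimulation, 11 genes known to respond to LPS were tested, and 11 rose in WT and 10 in cGAS-/- cells. Between the genotypes with LPS, 5 of them were higher and 1 lower in cGAS-/- LPS, and the LPS effect was called larger in cGAS-/- cells for 2 of them, Il6 and Il1a. Leaving out the third WT LPS sample gave 11 risers in both genotypes, and 7 genes higher and 1 lower in cGAS-/- LPS than in WT LPS. The LPS effect was then called larger in cGAS-/- cells for 4 and smaller for 2, Cxcl10 among the latter (-0.998). The genes with the pattern most like the mean of the 10 members over the 12 samples were Acsl1 (Pearson r = 0.995), Rasgrp1 (r = 0.994), Gsap (r = 0.993), Ptgs2 (r = 0.993) and Vasp (r = 0.991). These r values are given as a description over samples that share their scaling. Acsl1, which activates long-chain fatty acids, was 2.15 to 2.46 TPM in WT UT, 4.23 to 26.1 in WT LPS, 2.87 to 3.11 in cGAS-/- UT and 41.3 to 42.4 in cGAS-/- LPS.

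Among the members themselves, Pfkl (r = 0.986), Tpi1 (r = 0.983) and Eno1 (r = 0.983) followed the mean of the other 9 most closely over the 12 samples, and Pfkfb3 (r = 0.567), Aldoa (r = 0.653) and Pkm (r = 0.694) least. With the 3 WT LPS samples left out, r was 0.930 to 0.999 for all 10 genes. Some members also share sequence with other rows of the table. Gapdh has 195 relatives among the annotated transcripts at 90% identity or more, 129 of which are listed and 52 of which exceed 1 TPM in some sample, and Eno1 shares 99.6% identity with Gm4735, at up to 8.34 TPM. Reads of these genes could be split among such copies, so their levels are uncertain to that extent. No relative was found for Slc2a1, Hk2 and Pfkfb3.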

How the data were processed

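RNA was sequenced from 12 samples in 4 groups of 3, taken from the labels. Per the labels, the authors used fastp, STAR and kallisto with GRCm39; versions are not given in the sources used here. From their size and decimals, the deposited values were read as kallisto TPM, averaged by the authors over the transcripts that share a symbol. The columns sum to different totals, and read numbers are unknown, so counting error is not given. The extraction text of the labels names neutrophils, and their growth text names only knockout mice for all samples.

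Genes with at least 1 TPM in at least 3 samples (judged on columns brought to equal sums, while the fit used the values as deposited) were kept, 11887 of 38739. Log2(TPM + 1) was fitted with limma 3.58.1 in R 4.3.3, with a mean per group, contrasts and moderated variances with a trend, and p-values were adjusted over all tested genes. This pseudocount of 1 understates the change of low genes such as Pfkfb3. One estimate of the spread serves all groups, although the root mean square SD on the log2 scale was 0.895 in WT LPS and 0.322 to 0.376 in the others. Whether the p-values of the fit hold with groups of such unequal spread was not tested. Ratios were tested by exact permutation (scipy 1.17.1), and relatives were found with blastn 2.17.0 against GENCODE transcripts of GRCm39. Named are the members, the targeted gene, the largest row, near-identical copies, up to 4 called genes with the largest change per list and comparison, and the 5 genes of most similar pattern. Arrdc4 in WT cells, and values without the third WT LPS sample, were added after values were seen. Members and lists were chosen with earlier results of these data known.

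Alternatives were other pseudocounts, filters, scalings and variance models, a replicate block, and each sample left out. Sample weights, and median-of-ratios scaling together with leaving out the third WT LPS sample, were added after seeing the data.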

Additional observations from a re-analysis of the deposited data

How the results depend on the processing

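Of the values of single genes and ratios, 1182 kept direction and side of the threshold under the alternatives, 98 passed it newly, 39 no longer passed it and 25 changed sign. Shares in brackets are those of all tested genes called higher under the same setting. The cause was not tested where none is named here. In cGAS-/- LPS against cGAS-/- UT, 8 members were called, and leaving out 1 of the 12 samples gave 5 to 10 (3.2% to 9.19%). Requiring a log2 fold change beyond 2 left 1 (1.94%). In WT LPS against WT UT, 2 were called, and leaving out 1 sample gave 1 to 8 (2.92% to 8.26%). The count was 10 with median-of-ratios scaling (8.35%, and 15.4% without the third WT LPS sample), 7 with quantile normalization (8.13%), 7 with sample weights (3.79%), 1 with the 6 samples compared (1.4%) and 1 with the stricter fold rule (1.43%). In cGAS-/- LPS against WT LPS, 0 were called, and leaving out 1 sample gave 0 to 7 (0.303% to 23.9%). The count was 2 with a pseudocount of 5 (1.86%), 2 with median-of-ratios scaling (2.05%), 4 with quantile normalization (2.78%), 1 when rescaled to the protein-coding sum (1.35%), 4 with sample weights (1.52%) and 8 with median-of-ratios scaling without the third WT LPS sample (6.01%). In cGAS-/- UT against WT UT, 0 were called, and 0 to 1 with 1 sample left out (0.143% to 1.15%), 1 with the 6 samples compared (3.37%), 1 with sample weights (3.49%) and 1 with that combined setting (1.94%). For the difference of the LPS effect, 0 were called, and 0 to 3 with 1 sample left out (0.286% to 11.4%), 3 with sample weights (1.93%) and 4 with the combined setting (3.9%).

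Same-numbered samples of different groups did not deviate together (correlations of -0.03 to 0.04). No pairing by replicate number was thus seen, but these values cannot exclude a shared mouse or culture. With the replicate block, 7 members were called in cGAS-/- LPS against cGAS-/- UT (4.24%), 2 in WT LPS against WT UT (4.06%) and 0 in the other comparisons.

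Some signs turned, and not only for small differences. In UT, Tpi1 became 0.0046 with median-of-ratios scaling (with or without the third WT LPS sample), 0.070 with quantile normalization and 0.026 with the protein-coding sum, and ranged from -0.049 to 0.0048 with 1 sample left out. Between genotypes with LPS, leaving out 1 sample gave -0.91 to 0.0055 for Pfkfb3 and -0.064 to 0.44 for Pkm. Sample weights gave 0.035 for Pfkfb3 there, and median-of-ratios scaling -0.079 for Gapdh and -0.28 for Pkm. In WT cells, leaving out 1 sample gave -0.11 to 0.93 for Hk2, -0.034 to 0.69 for Ldha and -0.54 to 0.21 for Aldoa, the lower value without the second and the higher without the third WT LPS sample. Aldoa was 0.58 with median-of-ratios scaling and 0.64 with the combined setting, and was called in both. With sample weights it was 0.057 and not called. For the difference of the LPS effect, Pfkfb3 ranged from -0.70 to 0.21 with 1 sample left out and was 0.23 with sample weights and 0.088 with the combined setting, and median-of-ratios scaling gave -0.012 for Gapdh and -0.22 for Pkm. Among ratios, a pseudocount of 5 gave 0.25 for Pfkl/Pfkp with LPS between genotypes, and 0.0071 in UT and 0.41 with LPS for Aldoa/Aldoc, and a pseudocount of 0.1 gave -0.040 for Pfkfb3/Pfkfb4 in UT.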

Other observations

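Retrocopies of 2 further glycolysis genes are listed, while Pgk1 and Pgam1 themselves were not analysed here. They were chosen after their values were seen. Pgk1-rs7, which is 100% identical to Pgk1 over 68.8% of its transcript, was 237, 239 and 279 TPM in cGAS-/- UT and 768, 792 and 796 TPM in cGAS-/- LPS (limma log2 fold change 1.64 ± 0.26, SE, adjusted p = 0.0014). In WT cells it was 309.8, 350.02 and 323 TPM without LPS and 278, 525 and 269 TPM with it (0.05 ± 0.26, SE, adjusted p = 0.88). Its level was higher in cGAS-/- LPS than in WT LPS (1.21 ± 0.26, SE, adjusted p = 0.038). Without the third WT LPS sample these values were 0.22 in WT cells and 1.04 between genotypes. Pgam1-ps2, identical to Pgam1 over 42.5% of its transcript, rose in WT cells (0.81 ± 0.19, SE, adjusted p = 0.012), from 374, 409 and 379 to 617, 595 and 850.3 TPM, and in cGAS-/- cells (0.94 ± 0.19, SE, adjusted p = 0.0073), from 444, 426 and 422 to 871, 785 and 821 TPM. Between genotypes with LPS, Pgam1-ps2 overlapped and was not called (0.28, adjusted p = 0.43). With that sample left out it was at 0.64 in WT cells and was called between genotypes with LPS (0.45, adjusted p = 0.0087). Reads of the parent genes and of these copies cannot be told apart over the identical stretch.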
